A study of Mus musculus with 4 samples.

Results

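The p53 family consists of 3 related transcription factor genes in the mouse, Trp53, Trp63 and Trp73, and Wrap53 is the gene that lies head to head with Trp53. These 4 genes were taken by name from the 21887 protein-coding genes of RefSeq GRCm38; the selection rule uses no measured value. Chromatin immunoprecipitation followed by sequencing (ChIP-seq) had been done on thymus of 4-week-old mice. All mice, those behind the input library included, had the genotype p53 AD/AD, a germline change of Trp53 that the series describes as giving dimeric p53. There were 2 libraries with p53 antibody and an input library, read at 50 nt, and 1 library with PPAR-alpha antibody, read at 75 nt. The labels name no mice with wild-type p53 or without p53, nor do they say whether mice were pooled, how the allele was made, or whether the 2 p53 libraries came from separate animals. The gene under study is therefore also the altered gene in every library.

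p53 binds DNA as a tetramer made from a pair of dimers, switches on genes for cell cycle arrest and cell death after DNA damage, and in the thymus removes damaged thymocytes and holds back lymphoma. p63 maintains stratified epithelia and the epithelial cells of the thymus, and p73 acts in neurons, ciliated epithelia and germ cells. Both share the DNA-binding and tetramer-forming domains of p53 and can bind the same response elements. Wrap53 encodes TCAB1, a WD-repeat protein that carries telomerase and other small RNA-protein complexes to Cajal bodies. Its gene can also make an RNA antisense to the first exon of p53. PPAR-alpha is a nuclear receptor that switches on fatty acid oxidation genes.

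The authors deposited 3 lists of summits, a summit being the base of highest read pile-up in a called peak, which held 3608 and 4767 summits for the p53 replicates and 4070 for PPAR-alpha. No list of the input was used here. Each summit has a score without a stated unit, which has the form of the −log10 significance that MACS2 writes for a summit. No source used here gives read numbers, so the depth behind each list is unknown. Scores are compared only within a list. A summit was assigned to a gene when it lay inside it or within 20 kb of either end, the rule used throughout unless another window is named.

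The thymus label was checked on marker genes. Of 14 thymocyte markers such as the T cell receptor component gene Cd3d, the coreceptor gene Cd8b1, the kinase gene Lck and the regulators Bcl11b and Satb1, 12, 13 and 12 had a summit inside or within 5 kb in the first p53 list, the second p53 list and the PPAR-alpha list. This order of the lists is kept below wherever 3 values are given. Over all protein-coding genes the share was 14.6%, 18.3% and 14.3%. The markers are not all separate loci, since the neighbours Cd3d and Cd3g were counted partly through the same summits. Of 8 markers of thymic epithelium, the compartment where p63 is used, 0, 1 and 0 had one. Of 8 B cell and myeloid markers 1 had one in each list. In both p53 lists it was the macrophage gene Cd68, near Trp53 on chromosome 11, and in PPAR-alpha it was Itgam. The Cd68 summits lay at different places, 4538 and 1630 bases outside the gene. They were nearer to other genes, Eif4a1 in p53 replicate 1 and Mpdu1 in p53 replicate 2. Within 20 kb the counts were 14, 14 and 14 for thymocytes, 0, 2 and 0 for epithelium and 3, 2 and 4 for B cell and myeloid markers, where 20.8%, 25.7% and 20.4% of all genes had a summit. A summit near a marker is not a measure of its expression.

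Trp53 and Wrap53 are set back to back on chromosome 11. In GRCm38, Wrap53 spans 69561754 to 69580250 on the minus strand and Trp53 spans 69580348 to 69591873 on the plus strand. Only 97 bases separate their facing ends, the ends at which both genes start. The start used for the promoter window of Trp53, 69580359, lies slightly inside that gene's end, and the outer start of Wrap53, 69580250, lies at its end. The reference promoter windows, 250 bases before to 50 bases after each start, overlap by 208 bases. They are printed from RefSeq (GRCm38.p6), 5′ to 3′ on the strand of each gene, because all summits of Wrap53 and all but 1 of Trp53 have to be placed against them. Capitals mark the 97 bases between the genes, and the capitals of either line are the reverse complement of those of the other.
Trp53, chr11:69580109-69580408, plus strand: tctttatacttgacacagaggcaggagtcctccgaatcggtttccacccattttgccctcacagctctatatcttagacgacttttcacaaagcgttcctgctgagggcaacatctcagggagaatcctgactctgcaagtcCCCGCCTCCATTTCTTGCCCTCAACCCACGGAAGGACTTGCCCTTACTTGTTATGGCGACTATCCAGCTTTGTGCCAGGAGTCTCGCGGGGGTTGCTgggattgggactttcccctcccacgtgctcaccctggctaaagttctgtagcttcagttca
Wrap53, chr11:69580201-69580500, minus strand: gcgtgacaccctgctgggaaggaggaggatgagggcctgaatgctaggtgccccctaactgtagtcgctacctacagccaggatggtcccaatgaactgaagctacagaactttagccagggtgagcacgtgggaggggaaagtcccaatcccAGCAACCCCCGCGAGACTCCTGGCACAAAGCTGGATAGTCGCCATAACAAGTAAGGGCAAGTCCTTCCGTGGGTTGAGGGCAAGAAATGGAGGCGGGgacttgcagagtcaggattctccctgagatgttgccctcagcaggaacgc

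All 3 lists had a summit just inside Trp53, and no list had a summit inside Wrap53 or between the genes. The p53 replicate 1 summit lay at position 69581230 with a score of 3.34. The p53 replicate 2 summit lay at 69581081 with a score of 3.62. The PPAR-alpha summit lay at 69581291 with a score of 13.04. The 3 positions span 210 bases, and each was on the Trp53 side of the shared region.

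From the facing end of Trp53 the distance was 882, 733 and 943 bases in the 3 lists. From the facing end of Wrap53 it was 980, 831 and 1041 bases. The nearest gene end was thus that of Trp53 in every list, and the summits reached Wrap53 only through the window. To the far end of Trp53, where transcription of that gene ends, the 3 summits had 10643, 10792 and 10582 bases. To the far end of Wrap53 they had 19476, 19327 and 19537 bases. Within Trp53 they lay between 6.36% and 8.18% of its length of 11.5 kb. The gene table gives no exons, so whether these bases are exonic or intronic was not determined here.

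**Figure D1:**
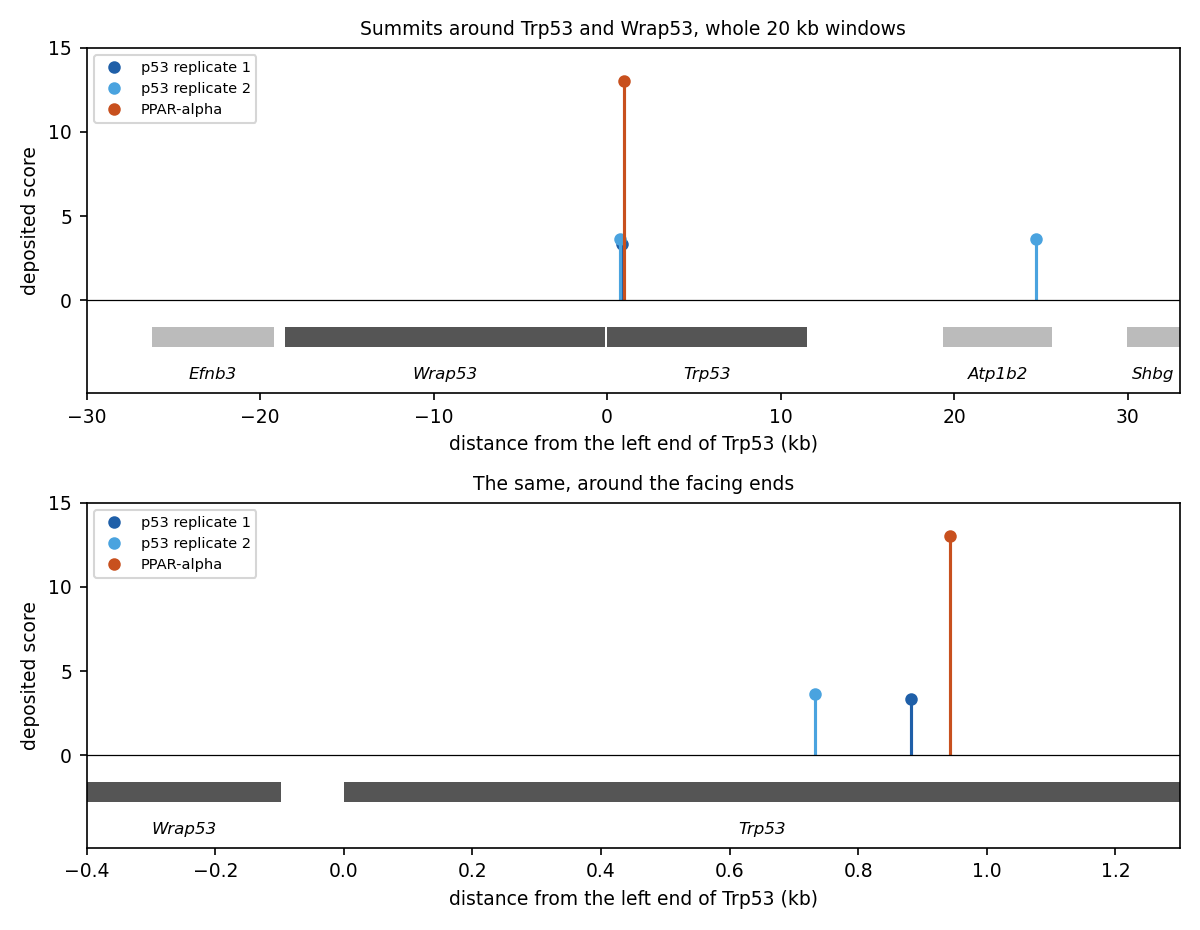
Summits around Trp53 and Wrap53; the horizontal axis is the distance from the left end of Trp53 in kb, the height of each point is its deposited score, and bars below are genes (dark, Trp53 and Wrap53; grey, neighbours). The lower panel enlarges the facing ends, where the 3 summits lie 733 to 943 bases inside Trp53 and none lies over the 97 bases between the genes.

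A summit in all 3 lists inside or within 20 kb is found at 9.88% of protein-coding genes, and 2 of the 4 members, Trp53 and Wrap53, met this through the same 3 summits. They are therefore 1 locus and not separate cases. A summit in both p53 replicates is found at 14.4% of genes. In the lists taken one by one the background share was 20.8%, 25.7% and 20.4%. A summit within 1 kb of a gene end is found at 9.21%, 11.9% and 8.80% of genes in the 3 lists, and at 2.80% in all of them, which Trp53 had. Wrap53 had this only in the p53 lists, since the PPAR-alpha summit was 1041 bases away. With 4 genes no test was made, and these counts are a description.

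How far apart were the lists at Trp53? The p53 replicate 1 summit lay 61 bases from the PPAR-alpha summit and 149 bases from the p53 replicate 2 summit. The p53 replicate 2 and PPAR-alpha summits were 210 bases apart. At 100 bases, the distance up to which 2 summits were counted as shared, the locus was therefore shared between p53 replicate 1 and PPAR-alpha and not between the p53 replicates. Over the whole p53 replicate 1 list, 20.8% of summits had a p53 replicate 2 summit within 100 bases, and 17.4% had a PPAR-alpha summit. Most summits were thus not shared by this rule. Distances like those at Trp53 are common in these lists. Of the p53 replicate 1 summits with a p53 replicate 2 summit within 1 kb, 49.2% were as close as 149 bases or closer, with a median of 154 bases. For p53 replicate 1 with PPAR-alpha, 26.8% were within 61 bases, and for p53 replicate 2 with PPAR-alpha, 56.5% were within 210 bases.

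The Trp53 summit scored below the median of its list (3.99) in p53 replicate 1, at the median (3.62) in p53 replicate 2 and above it (4.70) in PPAR-alpha. In p53 replicate 1 the score of 3.34 was the fourth lowest of 75 distinct scores, and 633 summits (17.5%) held exactly this score. Higher scores were held by 55.3% of the list and lower ones by 27.1%. In p53 replicate 2 the score of 3.62 was the fifth lowest of 76, held by 659 summits (13.8%), with 37.4% of the list above and 48.8% below. In PPAR-alpha the score of 13.04 was held by 38 summits (0.934%), with 10.3% above and 88.8% below. A PPAR-alpha summit scoring 10 or more lay inside or within 20 kb of 3.99% of protein-coding genes.

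These ranks belong to lists called separately from libraries of unknown depth. Antibody and read length changed together between the p53 and PPAR-alpha libraries, so their parts in the score cannot be told apart, and the single PPAR-alpha library has no replicate. No p53 summit near any of the 4 genes scored 5 or more.

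**Figure D2:**
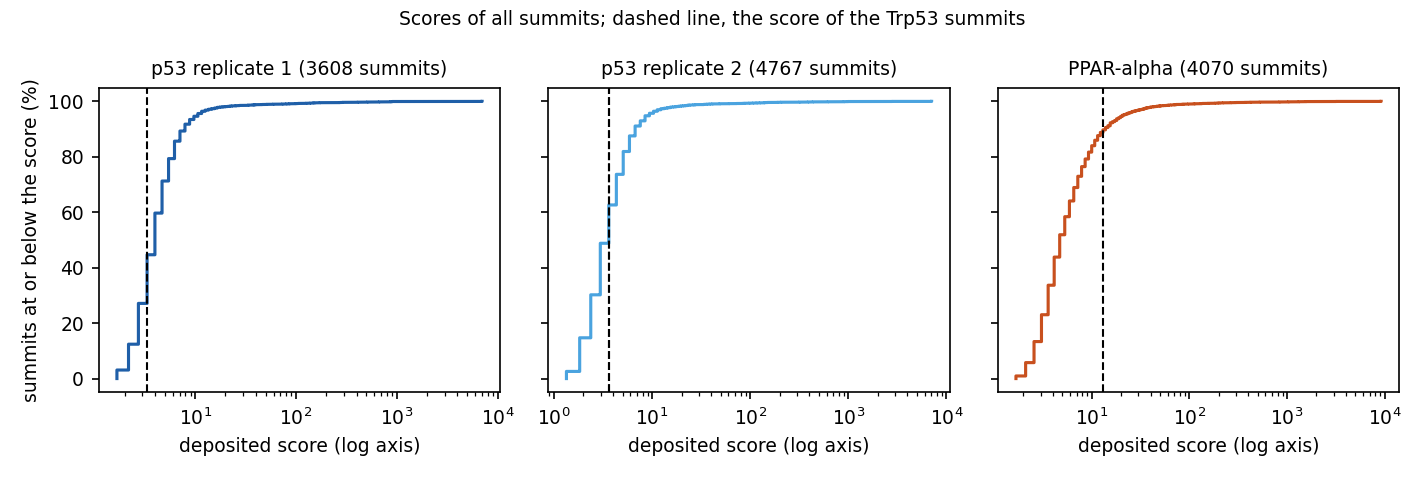
Share of all summits at or below each deposited score (log axis), 1 panel a list; the dashed line marks the score of the summits at Trp53. The line lies in the lower part of p53 replicate 1 (27.1% of summits score lower), in the middle of p53 replicate 2 (48.8%) and in the upper part of PPAR-alpha (88.8%).

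The summits lay farther into the gene than most summits near a start. Measured from the start used for the RefSeq promoter window of Trp53, they were 871, 722 and 932 bases downstream. Among summits within 2000 bases of their nearest annotated start, 11.9%, 10.4% and 10.05% lay 500 to 1000 bases downstream in these lists. The bin of 0 to 250 bases downstream held 27.4%, 28.2% and 26.7%, and the 250 bases before the start held 19.9%, 21.4% and 23.6%.

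**Figure D3:**
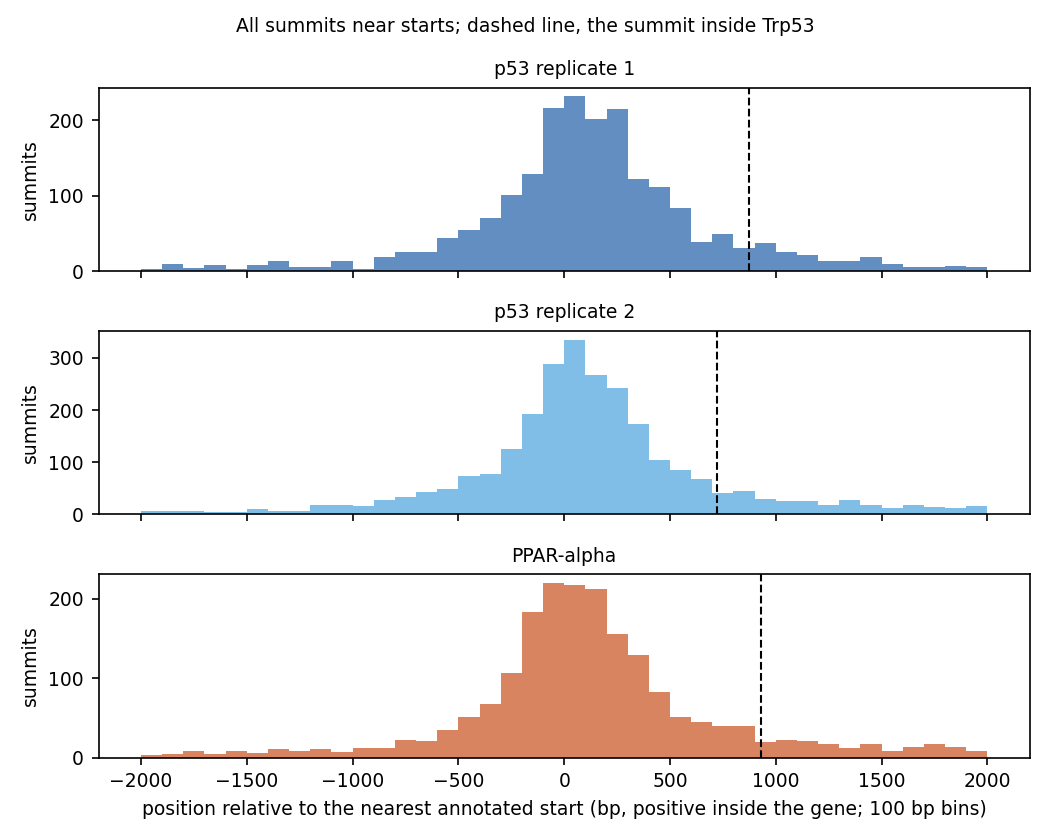
Number of summits in bins of 100 bases by position relative to the nearest annotated start (positive is inside the gene), 1 panel a list; the dashed line is the summit inside Trp53. The lists peak near the start, and the Trp53 summits stand 722 to 932 bases downstream, on the falling side of each distribution.

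Other head-to-head gene pairs, drawn from the 17492 of 21887 protein-coding genes with a known strand, gave the background for the shared region. Of 577 pairs of protein-coding genes on opposite strands with facing ends within 1 kb, 22.0% had a summit within 1 kb of a facing end in p53 replicate 1, 30.5% in p53 replicate 2 and 19.4% in PPAR-alpha, and 8.32% had one in all 3 lists. The pair of Wrap53 and Trp53 had one in all 3. Its gap of 97 bases was close to the median gap of 100. In such pairs 17.5%, 23.8% and 29.3% of the summits lay between the genes, and 62.0%, 62.4% and 60.3% lay up to 500 bases inside one of them. Summits as far inside as that of Trp53 numbered 4 of 137 in p53 replicate 1, 11 of 189 in p53 replicate 2 and 1 of 116 in PPAR-alpha, with Trp53 itself included and distances limited to 1 kb.

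Of 9 motifs searched on both strands of the promoter windows, 3 were found at the shared region. The p53 half-site, the decamer of which a full p53 element holds a pair, occurred once, as GGACTTGCCC at chr11:69580284-69580293, within the capitals of both printed windows. It begins at base 176 of the Trp53 window, 34 bases past the end of Wrap53, and 8.36% of all 32851 promoter windows hold such a match. The summits lay 788 to 998 bases from it, outside both windows, and sequence under the summits was not used here. CACGTG, the E-box read by MYC and USF proteins, occurred once at base 261 of the Trp53 window and in 7.15% of all windows. CCAAT, the box of the factor NF-Y, occurred 1 time in the Trp53 window and 2 times in that of Wrap53, 1 of them the same bases, and in 37.4% of all windows. The other 6 motifs had no match in either window. They were CATG (in 61.1% of all windows), the nuclear receptor element AGGTCA read by PPAR proteins (16.3%), the SP1 box GGGCGG (35.7%), the ETS core CCGGAA (14.9%), the CREB element TGACGTCA (1.79%) and the NRF1 decamer (0.971%). CATG can overlap the p53 half-site and forms part of the NRF1 decamer, and each was counted on its own. A match is a string of letters and does not show a bound site.

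Wrap53 has another annotated start at 69579249, inside its gene. The 3 summits lay 1981, 1832 and 2042 bases from it. The window there had 60.0% G and C and 21 CpG dinucleotides, against 57.3% and 9 at the outer Wrap53 start and 52.7% and 10 at Trp53. The median over all windows was 52.7% and 7. The outer Wrap53 start, the one facing Trp53, was thus nearer the summits in every list.

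A further summit fell within 20 kb of Trp53 in 1 list. It was in p53 replicate 2, at position 69605087 with a score of 3.62, the same score as that list's summit inside Trp53. It lay 13214 bases past the far end of Trp53, 24739 bases from its facing end and 24837 bases from the facing end of Wrap53, outside the Wrap53 window. It was inside Atp1b2, a subunit gene of the sodium pump, 891 bases from that gene's right end. The nearest summit of p53 replicate 1 was 23857 bases away and that of PPAR-alpha 23796 bases away, both of them the summits at Trp53. It was therefore present in neither of the other lists. Of all p53 replicate 2 summits, 42.5% had a PPAR-alpha summit within 1 kb, so lacking a PPAR-alpha summit is common. The share of them with a p53 replicate 1 summit was not counted. In the other direction, 52.2% of p53 replicate 1 summits had a p53 replicate 2 summit within 1 kb. The neighbours Efnb3, an ephrin gene beyond Wrap53, Dnah2, a dynein gene, and Shbg, the gene of sex hormone-binding globulin, had no summit inside them.

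Trp63 had no summit in any list. It spans 25683763 to 25892088 on chromosome 16, a length of 208.3 kb, and neither the gene nor its 20 kb flanks held one. The nearest summit was 1420 kb away in p53 replicate 1 (position 24263042, score 2.74), 628 kb away in p53 replicate 2 (25055527, 3.62) and 257 kb away in PPAR-alpha (25426529, 4.13). All were on the left side of the gene as the chromosome is numbered. On the right side the nearest summits were 3690 kb away in both p53 lists and 3920 kb away in PPAR-alpha.

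The gene sits in a long stretch that no list entered. Between the PPAR-alpha summit on its left and the p53 replicate 1 summit on its right lay 4.15 Mb without a summit in any of the 3 lists. Of the 12379 stretches between neighbouring summits of the pooled lists on autosomes, 78 (0.630%) were longer, and the median was 5.53 kb. A stretch around a gene of 208.3 kb without a summit must be longer than that gene. Its high rank was therefore partly fixed in advance and does not measure how rare such a gene is. The stretch holds 15 protein-coding genes, Trp63 included. The lack of a summit is the usual state, since 64.0% of protein-coding genes had none inside or within 20 kb in any list, and 72.9% of the 990 genes of 200 kb or more had none. A gene farther from its nearest summit than Trp63 was found in 13.1%, 21.6% and 40.3% of cases.

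Trp73 had no summit either. It spans 154056249 to 154139875 on the minus strand of chromosome 4, a length of 83.6 kb, and of the 3139 genes of 80 kb or more 63.4% had none inside or within 20 kb in any list. The nearest summit was 81.1 kb away in each of the 3 lists.

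On the other side of Trp73 the next summits were 797, 786 and 788 kb away. The stretch without a summit in any list was 951 kb, with 4.81% of the autosomal stretches longer. As at Trp63, this rank was partly fixed by the length of the gene. The stretch held 13 protein-coding genes. One of them is Wrap73, a WD-repeat gene that begins 2479 bases beyond the start of Trp73 and so faces it as Wrap53 faces Trp53. The nearest summits to its start were 167 kb away in each list.

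Both annotated Trp73 starts lay far from any summit. The outer start at 154139875, from which the longer p73 forms are made, was 165 kb from the nearest summit in each list and the inner start at 154097173, which gives the forms without the activating domain, was 122 kb away. Their windows differed in composition. The outer had 77.7% G and C with 39 CpG dinucleotides, more CpG than 95.6% of all windows, and the inner had 57.7% and 6. No p53 half-site was found in either. The Trp63 promoter is not analysed here.

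**Figure D4:**
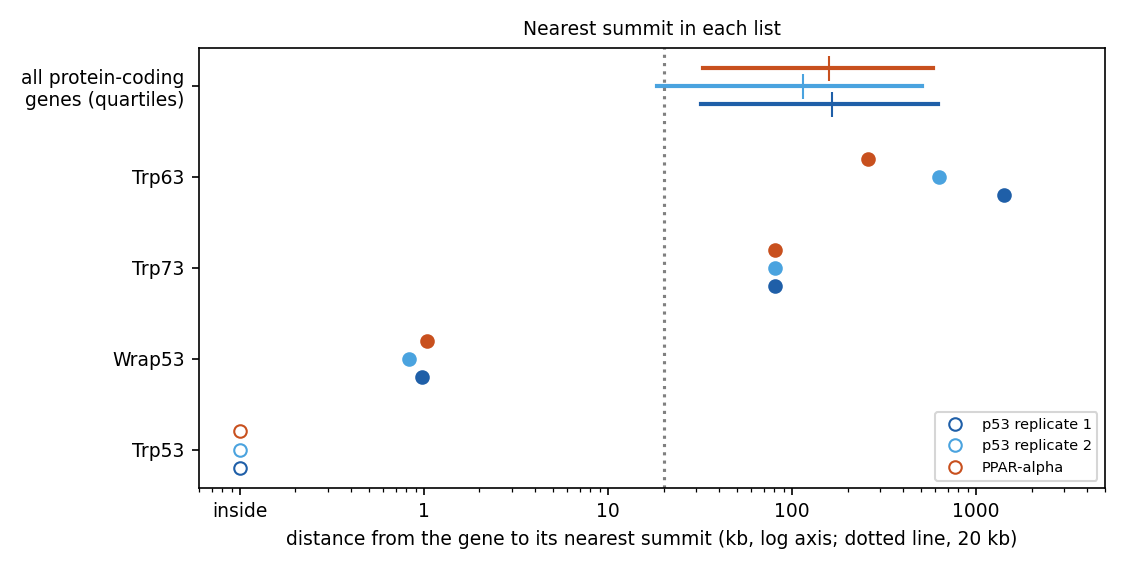
Distance in kb (log axis) from each of the 4 genes to its nearest summit in each list, with open circles for a summit inside the gene; the top lines give the median (tick) and quartiles over all protein-coding genes, and the dotted line is 20 kb. Trp53 and Wrap53 lie left of the 20 kb line in all 3 lists, and Trp73 (81.1 kb) and Trp63 (257 to 1420 kb) lie right of it.

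In order of distance the genes ran Trp53, Wrap53, Trp73 and Trp63 in every list. For all protein-coding genes the median distance was 164 kb in p53 replicate 1, 114 kb in p53 replicate 2 and 159 kb in PPAR-alpha, and 9.48%, 11.6% and 9.36% had a summit inside. Trp73 was thus nearer than the median gene in each list, and Trp63 farther. The 3 lists share the order, but their values for Trp63 spread from 257 to 1420 kb.

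Genes whose proteins act on p53 were compared with the background. Of 24 such genes, 6, 13 and 5 had a summit inside or within 5 kb, against 14.6%, 18.3% and 14.3% of all genes. There were 10 without one in any list, where 72.8% of all genes had none. In both p53 replicates there were 5, where 9.27% of all genes had one. The ubiquitin ligase gene Cop1 had a highest score of 6.24 and 3.62 in the p53 replicates, with the summits 244 and 158 bases outside the gene. The acetyltransferase gene Crebbp had 5.45 and 2.97, more than 3 kb outside it and beside its neighbour Trap1. Its relative Ep300 had 2.74 and 1.83 in the p53 lists and 3.58 in PPAR-alpha, each within 1 kb of the same gene end.

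Usp7, which encodes the enzyme that removes ubiquitin from p53 and MDM2, had 3.34 and 2.37 deep inside the gene at positions 8737458 and 8737455 of chromosome 16. Its PPAR-alpha summit, scoring 3.06, lay elsewhere in the gene at 8746235. Mdm4, which encodes an inhibitor of p53, had 2.18 and 2.37 inside the gene in the p53 lists. All scores given for Usp7, Ep300 and Mdm4 were below the medians of their lists. Of the 24 genes, 2 (Usp7 and Ep300) had a summit in all 3 lists, where 6.05% of all genes had one. Mdm2 had none in any list. Of 7 genes whose proteins act on p63 or p73, 2, 2 and 1 had a summit within 5 kb and 0 had one in both p53 replicates. Over all genes the shares were 14.6%, 18.3%, 14.3% and 9.27%. With 7 genes, whether the counts differ from those shares was not tested.

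Genes of the telomerase and Cajal body list, which also holds genes of telomere caps and the SMN complex, were counted in the same way. Of 24 genes, 9, 8 and 6 had a summit inside or within 5 kb, 5 in both p53 replicates and 3 in all 3 lists. Over all genes these shares were 14.6%, 18.3% and 14.3%, then 9.27% and 6.05%. The highest scores were near Coil, the gene of the Cajal body protein coilin, with 19.78, 22.93 and 37.08. Those summits, at 88969068, 88969169 and 88969118 of chromosome 11, lay 4867, 4766 and 4817 bases outside Coil, and the gene Elobl lies within 5 kb of them too.

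The SMN complex genes Gemin7 (10.65, 6.72 and 2.11), Gemin6 (7.07, 4.33 and 5.30) and Gemin2 (5.45 and 3.62, none in PPAR-alpha) followed. Their highest summits lay outside the genes, beside Ppp1r37, Srsf7 and Sec23a. The telomere-binding gene Terf1 had 1.68 and 1.83 inside it in the p53 lists alone. The score of 1.68 is the lowest in the p53 replicate 1 list. The telomerase reverse transcriptase gene Tert had none within 5 kb in any list. No test of any of these lists was made, and neighbours can share a summit.

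**Figure D5:**
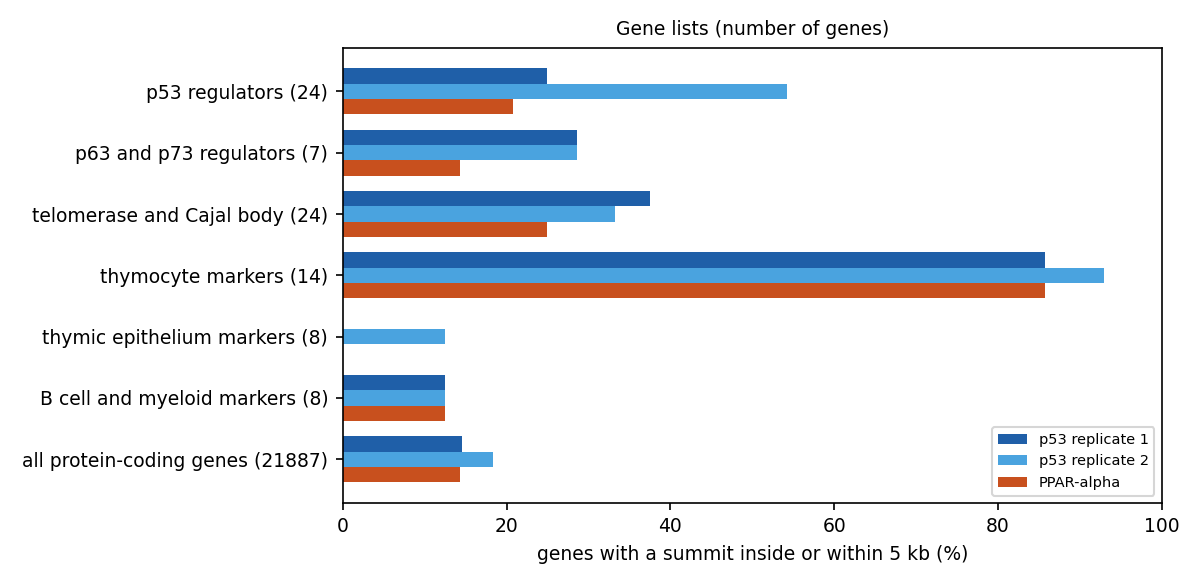
Percent of the genes of each list with a summit inside or within 5 kb, by summit list, with the number of genes in brackets and all protein-coding genes at the bottom. Thymocyte markers reach 85.7 to 92.9% and thymic epithelium markers 0 to 12.5%, and of the 24 p53 regulators 6 and 13 have a summit in the p53 lists and 5 in the PPAR-alpha list.

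The genes most like Trp53 in score were found by the highest score within 5 kb of either gene end in each of the 3 lists, and likeness was the sum of absolute differences in log10(score + 1). By that measure Wrap53 has the same 3 values, and the closest others were the neighbours Orai3 and Setd1a on chromosome 7, with 3.34, 3.62 and 12.26 each (sum 0.0249). Gm34296 (3.34, 4.33 and 12.26), Fmc1 (2.74, 3.62 and 12.26) and Ctu2, which has the values of Trp53 in both p53 lists, followed. Orai3 encodes a calcium channel subunit and Setd1a a histone methyltransferase. Likeness over 3 libraries whose scores take few distinct values is a description only. Trp63 and Trp73 have no value by this measure.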

How the data were processed

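Summit lists of 3 ChIP-seq libraries were used (p53 replicates 1 and 2, PPAR-alpha). The submitters' processing notes list MACS2 2.1.2, Bowtie2 2.3.4.2 and Picard 2.9.0 and give no roles or settings. The score deposited by the authors was read as a −log10 p- or q-value from its form. No source used here gives the calling threshold or control. Each library has its own list.

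The notes name GRCh38 for mouse tissue. Positions were therefore checked against RefSeq GRCm38.p6: 49.2%, 49.0% and 42.0% of summits lay within 1 kb of a gene end, and 6.38 to 8.08% after moving them by 10 or 50 kb. Positions are counted from 1.

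Genes were matched by symbol. Strand and starts came from the RefSeq promoter table, which holds Trp53, Wrap53 and Trp73 and covers 17492 of the 21887 protein-coding genes. Starts of the other protein-coding genes are missing from the head-to-head pairs and from the nearest annotated starts. Named genes were the 4 members, neighbours with an end in their windows, up to 6 genes per list with a summit inside or within 5 kb in both p53 replicates, and the 5 nearest in likeness. Mdm2, Tert, Itgam, Wrap73, Eif4a1, Mpdu1, Tnfsf13 and Kdm6b were chosen after their values were seen. Members and lists were chosen with earlier results of these data known. 1 result is not reported here. Counting was tested on simulated data. Python 3.11.15, pandas 2.3.3 and NumPy 2.4.6 were used. Nothing says that the p53 replicates came from separate animals, so their differences may be technical.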

Additional observations from a re-analysis of the deposited data

How the results depend on the processing

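Of 33 alternatives to 6 counts, 18 left the count at or near its value and 15 moved it. The main counts were 4 summits near the members, 2 members with a summit in both p53 replicates and 2 with one in all 3 lists, 3 summits within 1 kb of the facing Trp53 and Wrap53 ends, and, for p53 replicate 1 summits met within 100 bp, 0 by p53 replicate 2 and 1 by PPAR-alpha. Windows of 5 and 50 kb kept the member counts, and 1 kb left 1 member, Trp53, in all 3 lists. Summits near the members numbered 3 at 1 and 5 kb, which was taken as near the main value of 4. At 50 kb the counts could not fall, so a loss could not have shown there. With scores of 5 or more, and likewise of 10 or more, 1 summit near the members was left, that of PPAR-alpha, with 0 members in both p53 replicates, 0 in all 3 lists, 1 summit at the facing ends and 0 met by PPAR-alpha. Within 500 bp of the facing ends there were 0 summits, and within 5 kb there were 3, a count that could not have fallen. A sharing distance of 500 bp gave 1 summit met by p53 replicate 2, and 50 bp gave 0 met by PPAR-alpha. Leaving out a p53 replicate gave 2 to 3 summits near the members (2 without replicate 2, which holds the Atp1b2 summit), and 2 members in each count. Those 4 member counts need 1 list fewer and could only stay or rise. The count of 0 met by p53 replicate 2 could only stay at 50 bp and at scores of 5 or 10 or more. The count of 1 met by PPAR-alpha could only stay at 500 bp. All these outcomes say nothing of stability, though they are among the 18. No paired analysis was possible because the p53 libraries alone carry replicate numbers and no test was made. Depth is unknown, so a gene without a summit is one without a call, not one shown to be unbound.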

Other observations

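Within 150 kb of Trp53, outside its 20 kb window, the summits gathered at other genes on its right. The translation initiation gene Eif4a1 had 2.74 and 5.45 in p53 replicate 1 and 5.91 in PPAR-alpha, the last 382 bases from its right end. Mpdu1 had 4.33 in p53 replicate 2, 66 bases from its right end, and Tnfsf13, the gene of the cytokine APRIL, had 2.18 in p53 replicate 1. The summits scoring 2.74 and 4.33 are those counted for the marker Cd68 above. On the left Trp53 had no summit within 150 kb in any list. Farther out, 162 kb away, the nearest gene end to the summits was that of the histone demethylase gene Kdm6b, with 11.30 in p53 replicate 2 at 69418485 and 4.13 in PPAR-alpha at 69418556. From there to the Trp53 summits no list had a summit over Dnah2, Efnb3 or Wrap53. In p53 replicate 1 the nearest summit on the left was farther out, at 69410070, 170 kb from Trp53, with 6.24. Scores in each list took few values, since the 10 commonest scores covered 91.8% of the summits of p53 replicate 1, 93.0% of p53 replicate 2 and 72.0% of PPAR-alpha.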
